A study of Homo sapiens with 26 samples.

Results

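Cytochrome c oxidase (complex IV) is the terminal enzyme of the respiratory chain, where electrons from cytochrome c reduce oxygen to water while protons are pumped across the inner mitochondrial membrane. Its catalytic core is made inside mitochondria from the mitochondrial genome, whereas the small subunits around the core are encoded in the nucleus, translated by cytosolic ribosomes and imported. These small subunits join in modules, each built around MT-CO1, MT-CO2 or MT-CO3. The measurements below are for the mRNAs of 10 nuclear-encoded subunits, namely COX4I1, COX5A, COX5B, COX6A1, COX6B1, COX6C, COX7A2, COX7B, COX7C and COX8A, out of 60663 genes in the RNA-seq files and 58849 entries in the ribosome profiling files.

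LOCL-TL labels ribosomes at a chosen place in living cells. HEK293T cells, a human embryonic kidney line, carried an Avi tag on the endogenous ribosomal protein RPL29 and LOV-BirA, a biotin ligase switched on by blue light; biotinylated ribosomes were pulled down with streptavidin and compared with the total input of the same lysate. Ribosome profiling covered LOV-BirA at the endoplasmic reticulum (ER), at the outer mitochondrial membrane (OMM, labelled mito) and in the cytosol, with 2 total and 2 pulldown libraries at each location. A second readout, RNA-seq of the intact mRNAs bound to OMM-labelled ribosomes, covered wild-type cells carrying a negative control guide RNA (WT), AKAP1 null cells and LARP4 null cells, with 2 total and 2 pulldown libraries each, and cells without cycloheximide (no CHX), with 1 of each. The Avi-tagged parent and both null lines are single clones, the ER ligase (a fusion to Sec61β) ran from the SFFV promoter and the other ligases from EF1α, and cycloheximide, which stalls ribosomes, was added before labelling everywhere else, as the general protocol has it. The label of the no CHX libraries names no genotype. The labels number the replicates without saying that they came from separate cultures, so p-values measure the spread between these lysates. Coding-sequence footprints numbered 1025114 to 19539527 per library and RNA-seq reads on genes 38347615 to 100840544.

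Markers chosen for HEK293T cells were detected: VIM lay between 442 and 692 CPM (counts scaled to the library total) in the 7 RNA-seq total inputs and INA between 76.3 and 107 CPM, while the immune marker PTPRC did not exceed 0.0261 CPM and CD3E was at 0. KRT8 ranged from 3.88 to 20.3 CPM, NEFM from 25.4 to 48.9 CPM and KRT18 from 41.5 to 55.9 CPM; ALB did not exceed 0.156 CPM, and COL1A1 ranged from 7.16 to 23.1 CPM. AKAP1, which encodes an OMM scaffold protein with an RNA-binding domain, was at 115 and 119 CPM in WT total input and at 32.2 and 20.3 CPM in AKAP1 null input (log2 change -2.15, SE 0.22, edgeR adjusted p = 0.242). LARP4, which encodes a cytoplasmic RNA-binding protein, was at 225 and 231 CPM in WT and at 79.3 and 74.0 CPM in LARP4 null input (log2 change -1.56, SE 0.12, edgeR adjusted p = 0.0405). Each targeted mRNA was thus lower in both lysates of its own null line than in both WT lysates.

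The subunits were short and mostly membrane proteins. Their proteins ran from 63 residues (COX7C) to 169 (COX4I1), and their genes from 2 exons (COX8A) to 5 (COX4I1 and COX5A). COX5A, COX5B and COX6B1, which have no membrane span and sit on the faces of the enzyme, had the lowest peak hydropathy over 19 residues (0.43, 0.65 and -0.13 on the Kyte-Doolittle scale), while the other 7 lay between 1.36 and 1.98. In GRCh38 the genes lie on different chromosomes. For example, COX6A1 is at chr12:120438090-120440737 on the plus strand, COX5B at chr2:97646062-97648383 on the plus strand and COX4I1 at chr16:85798633-85807068 on the plus strand.

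Per kilobase of annotated exon, the levels of these mRNAs spanned a narrow range. That length covers all annotated exons of a gene and can far exceed the main mRNA. It was 4816 bases against 763 for COX4I1, 2712 against 744 for COX6C and 494 against 494 for COX8A. The order below therefore depends on the length used. By CPM, COX4I1 (240 and 238 in WT input) lay above COX8A (80.5 and 69.4). On the FPKM scale, reads per kilobase of exon relative to the library total, the 6 RNA-seq total inputs with CHX had a median of 145 FPKM for COX7C, 136 for COX8A, 128 for COX5A and 85.0 for COX6B1. COX7B followed at 59.4, COX5B at 51.8, COX4I1 at 49.6, COX6A1 at 48.9, COX7A2 at 46.3 and COX6C at 41.0. The ranges of the top 3 overlapped (124 to 156 for COX7C, 120 to 163 for COX8A, 106 to 167 for COX5A), as did those of COX5B, COX4I1, COX6A1, COX7A2 and COX6C with their neighbours in the order, whereas COX6B1 (74.6 to 97.3) overlapped neither neighbour. Footprints per kilobase of countable coding sequence ran from a median of 193 RPKM (COX4I1) to 1834 RPKM (COX7C) over the 6 ribosome profiling inputs. For 3 genes that density rests on little countable coding sequence: 20 bases in COX7B, 27 in COX4I1 and 35 in COX7C.

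Not every subunit could be followed by footprints. COX6A1 shares its ribosome profiling entry with GATC and a readthrough gene, and COX8A shares its entry with 1 unnamed gene, so the values of these entries are given but were not tested. COX4I1 had 31.7 and 62.9 coding footprints in the OMM inputs, under the minimum of 64 per lysate. The 7 members left for the OMM test were COX5A, COX5B, COX6B1, COX6C, COX7A2, COX7B and COX7C; all 10 passed the RNA-seq minimum.

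Footprints of the subunits were concentrated on the OMM. The 8 members with an entry of their own held 0.202% and 0.216% of coding footprints in the OMM total inputs and 0.809% and 0.834% in the OMM pulldowns. In the ER lysates the same share went from 0.232% to 0.187% and from 0.211% to 0.170%, and in the cytosolic lysates from 0.246% to 0.233% and from 0.279% to 0.277%. The 95% Wilson intervals of these shares were no wider than 0.0173 percentage points on either side and cover counting error only. The OMM pulldowns therefore lay above every other library, without overlap.

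**Figure D1:**
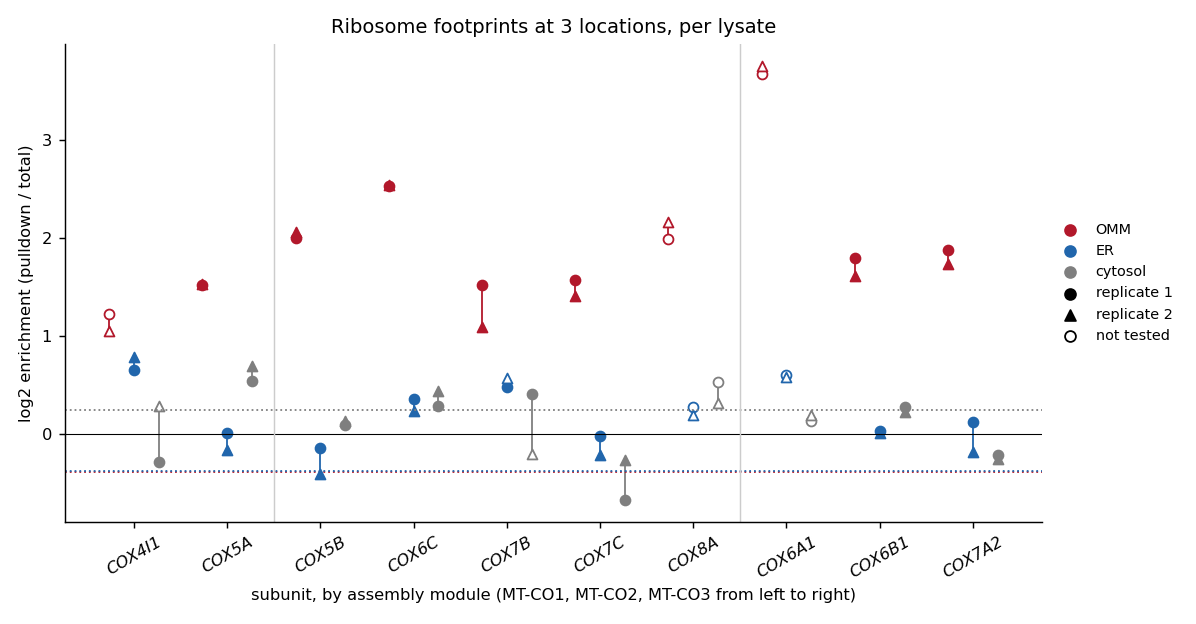
Log2 ratio of pulldown to total RPKM (vertical axis) for each subunit (horizontal axis), by location and replicate, with dotted lines at the median of all genes in each location and lines joining replicates. All 10 subunits lay higher at the OMM than at the ER or in the cytosol in both replicates, tested or not.

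Within the MT-CO1 module, COX5A, the peripheral matrix-side subunit, had log2 pulldown to total ratios of RPKM of 1.52 and 1.53 at the OMM. The 2 lysates differed by almost nothing. edgeR's quasi-likelihood fit put it at 1.55 (SE 0.09, adjusted p = 9.7e-10). COX4I1, the larger membrane subunit that regulates the enzyme through adenine nucleotides, had ratios of 1.22 and 1.05 on 31.7 and 62.9 input footprints, and 1.30 and 1.32 when footprints over all its exons were counted; it was not tested on coding sequence.

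The MT-CO2 module held both high and low values. COX6C, a small single-span subunit, had OMM ratios of 2.54 and 2.54, and its 2.56 (SE 0.09, adjusted p = 4.5e-12) was number 20 of 6728 genes tested. COX5B, a zinc-binding matrix-side subunit, had ratios of 2.00 and 2.06 (fit 2.05, SE 0.09, adjusted p = 2.5e-11). Both were high in both lysates. COX7C and COX7B, small single-span subunits, were lower: COX7C had 1.57 and 1.41 (fit 1.51, SE 0.12, adjusted p = 2.3e-08) and COX7B 1.52 and 1.09 (fit 1.30, SE 0.23, adjusted p = 1.5e-04), the latter on 74.1 and 79.5 input footprints. The entry that holds COX8A, another small single-span subunit, had 1.99 and 2.16.

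In the MT-CO3 module, COX7A2, the widely expressed isoform of its subunit, had OMM ratios of 1.88 and 1.73 (fit 1.82, SE 0.09, adjusted p = 2.4e-10). COX6B1, a twin-cysteine protein of the intermembrane space, had 1.80 and 1.61 (fit 1.72, SE 0.10, adjusted p = 7.7e-10). The highest ratios of all, 3.68 and 3.76, belonged to the entry of COX6A1, the widely expressed isoform of its subunit; counted over all exons, GATC and the readthrough gene included, they were 3.02 and 3.30.

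Thus 7 of 7 tested members were enriched on the OMM, with a median of 1.72, against 17.0% of the 6728 genes tested and a median of -0.38 over all of them. Over all genes 1145 were higher and 3101 lower, and with TMM scaling, which moved that median to -0.02, 1814 and 1477. In order of fitted value on coding-sequence footprints, COX6C and COX5B stood apart from each other and from the rest in both lysates. The ranges of COX7A2, COX6B1, COX7C and COX7B overlapped with at least 1 neighbour, and COX5A fell inside the range of COX7C. This order depended on the counting: over all exons COX7A2 had ratios of 2.51 and 2.40, level with COX6C (2.48 and 2.43) and above COX5B (1.99 and 2.06), and COX7C (1.12 and 1.04) lay below COX7B (1.55 and 1.70).

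ER-proximal ribosomes gave lower values. COX5B had RPKM ratios of -0.14 and -0.41, COX7C -0.02 and -0.22, COX7A2 0.12 and -0.18, COX5A 0.01 and -0.17, COX6B1 0.02 and 0.01, COX6C 0.35 and 0.23, and COX4I1 0.66 and 0.79. COX7B had 0.47 and 0.57 but was not tested, with 57.8 input footprints in replicate 2. The shared entries of COX6A1 (0.60 and 0.58) and COX8A (0.27 and 0.20) were also above 0. For the genes with little countable coding sequence, ratios over all exons differed. They were -0.09 and -0.12 for COX7B, 0.98 and 0.88 for COX4I1, and -0.23 and -0.43 for COX7C. RPKM ratios at the ER exceed the fitted values, which are scaled by coding footprints, because the 2 denominators differ. In the fit 5 of 7 tested members were called depleted (from -0.27 for COX6B1 to -0.56 for COX5B), 1 was called enriched (COX4I1, 0.42, SE 0.18, adjusted p = 0.036) and COX6C was not called (0.01). The COX4I1 call was lost without ER replicate 1 (adjusted p = 0.094), without ER replicate 2 (adjusted p = 0.38) and without the lysate block (adjusted p = 0.25), and the depleted members numbered 4 without either ER lysate and 1 without the block. Among all 7381 genes 72.1% were called depleted and 19.8% enriched, with a median of -0.68 (1465 higher and 5321 lower; with TMM 2190 and 1800), so every tested member lay above the median of all genes. The direction of the called members flipped with the scale: with TMM 0 were depleted and 6 enriched, and the size factors of DESeq2 gave 0 and 5.

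Cytosolic LOV-BirA gave small and mixed values. COX7C was called depleted (ratios -0.68 and -0.27; fit -0.71, SE 0.11, adjusted p = 2.7e-04), as was COX7A2 (ratios -0.22 and -0.26; fit -0.47, SE 0.09, adjusted p = 0.0026). COX5A was called enriched (ratios 0.54 and 0.70; fit 0.38, SE 0.09, adjusted p = 0.010). COX5B (ratios 0.09 and 0.13), COX6B1 (0.27 and 0.22) and COX6C (0.29 and 0.43) were not called, with fitted values of -0.12, 0.01 and 0.13. As at the ER, the RPKM ratios exceed the fitted values because the denominators differ. Of 7162 genes tested, 5.96% were called depleted and 2.02% enriched. None of these calls held without the lysate block, where 27 of all genes were called depleted and 0 enriched (239 at an unadjusted p under 0.05) and the members ran from -0.70 to 0.38, against -0.71 to 0.38 with it. The call of COX5A was lost without cytosol replicate 2 and with the cytosolic libraries fitted alone.

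The direct contrasts separated the OMM from both other locations. OMM enrichment exceeded ER enrichment for 6 of 6 members tested, by 1.91 (COX7C, SE 0.16) to 2.61 (COX5B, SE 0.12), with adjusted p between 1.2e-10 and 2.5e-08. In this contrast 31.2% of 6675 genes were higher at the OMM and the median of all was 0.28 (2084 higher and 1241 lower; with TMM 1061 and 1425). Against the cytosol the 6 members were higher by 1.17 (COX5A, SE 0.13) to 2.43 (COX6C, SE 0.12), with adjusted p between 1.1e-09 and 2.3e-06, and 16.5% of 6465 genes were higher (1069 higher and 2583 lower; with TMM 1672 and 1222). COX5A, the member favoured in the cytosolic pulldown, had the smallest OMM to cytosol difference, and COX5B, the lowest at the ER, had the largest OMM to ER difference. Both contrasts use the same OMM libraries.

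The mRNAs themselves came down with OMM-labelled ribosomes. The 10 mRNAs made up 0.144% and 0.147% of the reads in WT total input and 0.677% and 0.761% in WT pulldown. In LARP4 null cells the share went from 0.144% to 0.455% and from 0.126% to 0.321%, and in AKAP1 null cells from 0.140% to 0.197% and from 0.140% to 0.185%. Without CHX it went from 0.130% to 0.594%. Total input shares thus stayed between 0.126% and 0.147%, while the pulldown shares of the 3 lines did not overlap. In bulk lysates, fewer cells that use a transcript and less of it per cell cannot be told apart.

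**Figure D2:**
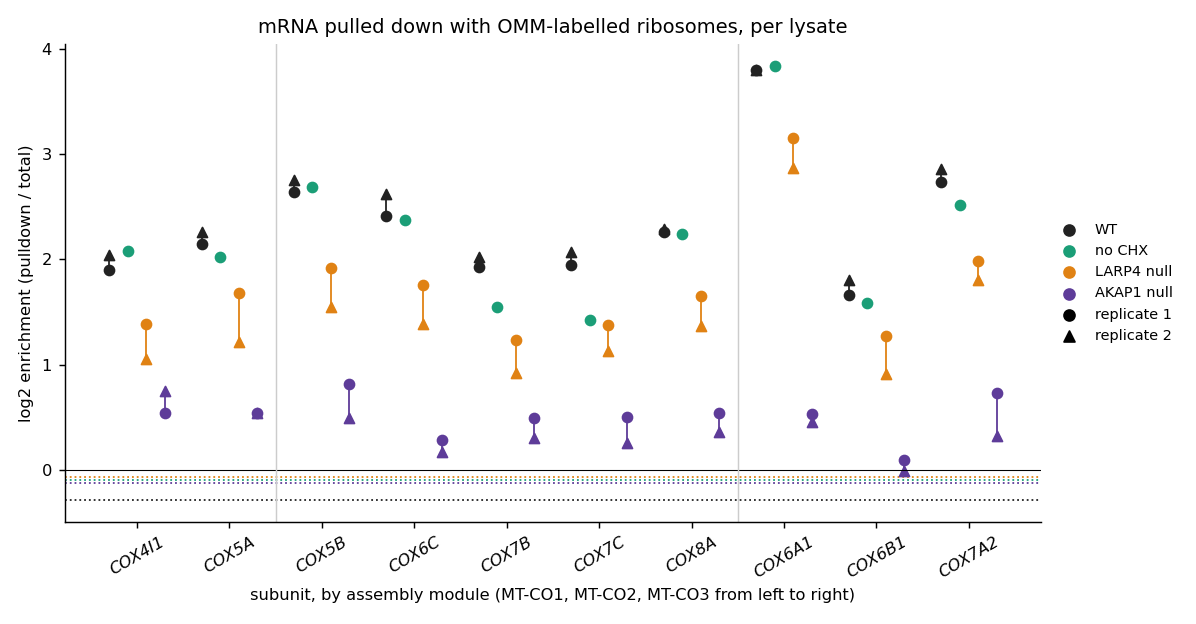
Log2 ratio of pulldown to total CPM, with 0.5 counts added (vertical axis), for each subunit (horizontal axis), by line and replicate, with dotted lines at the median of all genes in each line. Every subunit lay highest in WT or no CHX cells, lower in LARP4 null cells and lowest in AKAP1 null cells.

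In WT cells COX6A1 led, with log2 CPM ratios of 3.80 and 3.80, and its fitted 3.80 (SE 0.11, adjusted p = 1.0e-06) was number 2 of 13856 genes. COX7A2 followed at 2.73 and 2.85 (fit 2.80, SE 0.12) and COX5B at 2.64 and 2.76 (fit 2.70, SE 0.13). COX7A2 and COX5B overlapped, while COX6A1 stood clear of both. Then came COX6C (2.41 and 2.62), COX8A (2.26 and 2.29) and COX5A (2.14 and 2.26), of which the last pair overlapped. COX7C (1.95 and 2.07), COX4I1 (1.90 and 2.05) and COX7B (1.92 and 2.02) could not be ordered beyond their spread. COX6B1, the intermembrane-space subunit, was lowest at 1.66 and 1.81 (fit 1.73, SE 0.11, adjusted p = 1.3e-05), below all others in both lysates. All 10 were called enriched, with a median of 2.24, where 20.2% of 13856 genes were and the median of all genes was -0.28 (2803 higher and 6324 lower; with TMM 4296 and 3847).

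The COX6A1 value rests on reads assigned to 1 gene with close relatives. Its processed pseudogenes took at most 2.05% of the reads of the family in a library, against at most 1.15% for COX6C and 0.468% for COX5B, and the overlapping readthrough gene stayed at or below 0.131 CPM in total inputs. GATC, which shares the footprint entry, is counted on its own in the RNA-seq files. COX4I1 shares exon bases with EMC8 on the other strand.

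Footprint and mRNA enrichment ranked the subunits alike in part. COX6C was the highest of the 7 by coding-sequence footprints (2.56) and came after COX7A2 and COX5B by mRNA (2.52), COX7B was lowest by footprints (1.30) and had 1.97 by mRNA, and COX6B1, lowest by mRNA at 1.73, had 1.72 by footprints. Over the 7 subunits Spearman's rho was 0.64 and Pearson's r 0.59, as a description across genes that share libraries. The 2 assays were normalised separately, so the difference between them was not tested. Neither measure ordered the subunits by protein length (rho 0.03 for WT mRNA over 10 genes and 0.14 for footprints over 7).

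**Figure D3:**
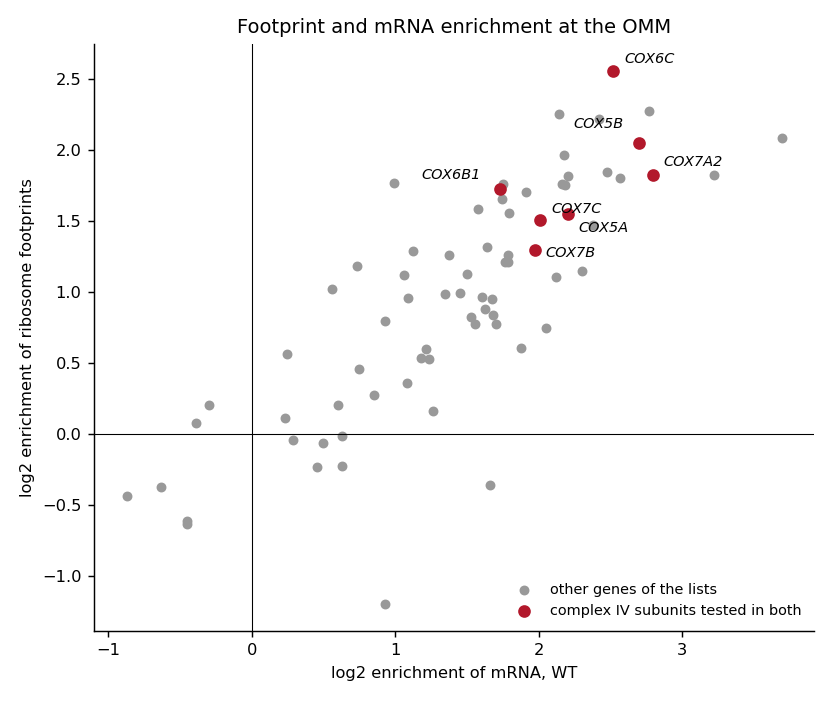
Fitted log2 enrichment of OMM footprints (vertical axis) against that of mRNA in WT cells (horizontal axis) for the 7 subunits tested in both and 66 other genes of complexes I to IV, ATP synthase and complex IV assembly. The 7 subunits lay at the upper right, between 1.30 and 2.56 for footprints and between 1.73 and 2.80 for mRNA.

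Cells without CHX gave similar ranks in a single lysate. The log2 CPM ratio was 3.84 for COX6A1, 2.68 for COX5B, 2.52 for COX7A2 and 2.38 for COX6C. It was 2.24 for COX8A, 2.08 for COX4I1 and 2.02 for COX5A, and lowest for COX6B1 (1.58), COX7B (1.55) and COX7C (1.42). All 10 exceeded a log2 ratio of 1, where 8.42% of 15112 genes did. COX7C and COX7B lay below both WT lysates (1.95 and 2.07 for COX7C, 1.92 and 2.02 for COX7B), and so did COX5A, COX6C, COX7A2, COX8A and COX6B1 by less, whereas COX6A1 and COX4I1 lay above both and COX5B between them. There is no replicate without CHX, light and biotin exposure was shorter there, and the genotype is not labelled, so no test was made.

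Most of the OMM enrichment of these mRNAs was gone in the AKAP1 null line, a single clone in which the deletion and the clone cannot be told apart. COX6A1 went from 3.80 and 3.80 in WT lysates to 0.53 and 0.45 in AKAP1 null lysates, a difference of -3.31 (SE 0.14, adjusted p = 8.6e-05) that left 10.1% of the WT pulldown to total ratio. Only 2 of 13856 genes fell further. COX6C went from 2.41 and 2.62 to 0.28 and 0.16 (difference -2.30, SE 0.16, adjusted p = 2.4e-04), and COX7A2 from 2.73 and 2.85 to 0.73 and 0.32 (difference -2.27, SE 0.16, adjusted p = 2.7e-04). In each case the AKAP1 null lysates lay far below the WT lysates.

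The remaining subunits fell by less. COX5B went from 2.64 and 2.76 to 0.82 and 0.50 (difference -2.04, SE 0.17), COX8A from 2.26 and 2.29 to 0.54 and 0.36 (-1.83, SE 0.14) and COX6B1 from 1.66 and 1.81 to 0.10 and -0.01 (-1.69, SE 0.15). COX5A went from 2.14 and 2.26 to 0.54 and 0.54 (-1.66, SE 0.17), COX7C from 1.95 and 2.07 to 0.50 and 0.26 (-1.63, SE 0.15) and COX7B from 1.92 and 2.02 to 0.49 and 0.30 (-1.57, SE 0.15). COX4I1 changed least, from 1.90 and 2.05 to 0.54 and 0.75 (-1.33, SE 0.16, adjusted p = 0.0011). WT and AKAP1 null lysates did not overlap for any of the 10.

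All 10 members were thus called lower in AKAP1 null than in WT cells (edgeR, adjusted p from 8.6e-05 to 0.0011), with a median difference of -1.76. Of 13856 genes, 7.96% were called lower and the median of all genes was 0.19 (903 higher and 1103 lower, with TMM 285 and 1424). That fit also held the LARP4 null libraries. With only the WT and AKAP1 null libraries, 4529 of 13548 genes were higher and 1934 lower, with a median of 0.19. Without the lysate block 98 genes were higher and 331 lower, with a median of 0.18. With 1 lysate left out, that median lay between 0.16 and 0.21. What remained in AKAP1 null cells was small: 8 of 10 members were still called enriched over total input, against 13.9% of genes (1930 higher and 3892 lower; with TMM 2772 and 2865), with a median of 0.47 and a maximum of 0.66 (COX5B, SE 0.12, adjusted p = 0.0037). COX6C (0.22, adjusted p = 0.14) and COX6B1 (0.04, adjusted p = 0.77) were not called. Without AKAP1 null replicate 1 the count of enriched members was 1, without replicate 2 it was 2, and without the lysate block it was 2. The enriched genes overall fell from 1930 to 483, 516 and 632 in the same fits, while the members' median was 0.34, 0.53 and 0.47. The order changed with the fall: COX6A1, highest in WT, was number 5 of 10 in AKAP1 null cells, and the spread between the highest and lowest member shrank from 3.80 against 1.73 to 0.66 against 0.04. In AKAP1 null cells the residual enrichment tended to be larger for longer subunits (rho 0.70 over 10 genes, a description), whereas the change from WT was little related to length (rho 0.13).

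The mRNA content of the cells moved little. Total input changed between AKAP1 null and WT by -0.29 (COX5A, SE 0.18) to 0.14 (COX6B1, SE 0.11) on the log2 scale, and 0 of 10 members were called (edgeR, adjusted p 0.97 or above). AKAP1 itself was not called in that test (-2.15, SE 0.22, edgeR adjusted p = 0.242). The lack of a call therefore does not show an unchanged level. COX6A1 was at 47.8 and 50.0 FPKM in WT input and at 51.4 and 46.4 in AKAP1 null input. COX6C was at 41.2 and 38.9 in WT and at 43.0 and 40.9 in AKAP1 null input. For both genes the values of the lines overlapped, unlike the enrichments. The input values did not overlap for COX7C (156 and 152 FPKM in WT, 137 and 139 in AKAP1 null), COX8A (163 and 140 against 137 and 128) and COX6B1 (85.1 and 84.9 against 97.3 and 89.1). The share of all 13977 genes called was 0.0%, with 489 at an unadjusted p under 0.05, and DESeq2 called 8 higher and 7 lower. In LARP4 null input the members changed by -0.23 (COX8A, SE 0.11) to 0.13 (COX7A2, SE 0.19) and 0 of 10 were called, where 0.0143% of genes were, with 509 at an unadjusted p under 0.05 and 14 higher and 14 lower by DESeq2.

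**Figure D4:**
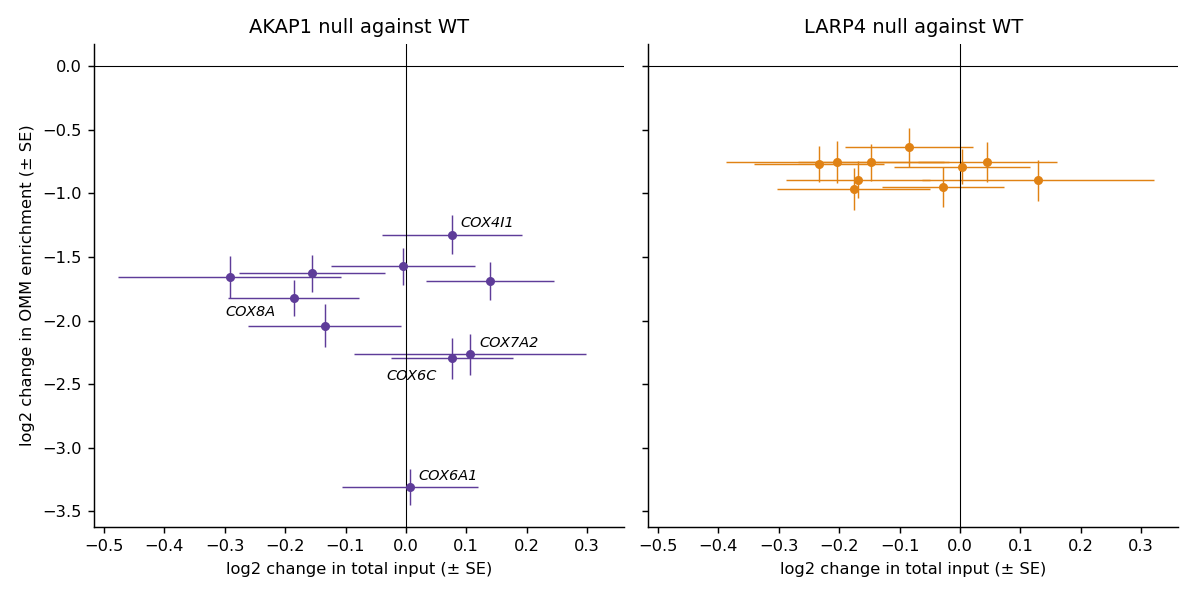
Fitted log2 change of OMM enrichment (vertical axis) against fitted log2 change of total input (horizontal axis), both null minus WT with SE bars, for the 10 subunits in AKAP1 null cells (left) and LARP4 null cells (right). The enrichment changes lay between -3.31 and -1.33 in AKAP1 null cells and the total input changes between -0.29 and 0.14.

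LARP4 null cells kept much of the enrichment. COX6A1 had ratios of 3.15 and 2.87, COX7A2 1.99 and 1.80, COX5B 1.91 and 1.55, and COX6C 1.75 and 1.39. COX5A had 1.68 and 1.21, COX8A 1.65 and 1.36, COX4I1 1.39 and 1.05, and COX7C 1.38 and 1.13. COX6B1 (1.27 and 0.91) and COX7B (1.24 and 0.92) were lowest. All 10 were called enriched over total input (1.08 to 3.01, median 1.47), against 22.8% of genes.

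Both LARP4 null lysates lay below both WT lysates for each of the 10 members, by -0.64 (COX6B1, SE 0.15) to -0.97 (COX5B, SE 0.17), with a median of -0.78 where the median of all genes was 0.17. None passed the adjusted threshold in edgeR (adjusted p 0.16 to 0.21), and neither did any other gene, so the background was 0.0% called lower, with 2270 of 13856 genes at an unadjusted p under 0.05. DESeq2 called all 10 lower, within 491 genes lower and 4 higher. edgeR also called 10 lower with no minimum count (316 of 39877 lower and 771 higher), with a members' median of -0.78. It called no gene either way with TMM, without the lysate block or with only the WT and LARP4 null libraries. The same held with the lower and with the strictest minimum count. The members' median was -0.96 without LARP4 null replicate 1 and -0.64 without LARP4 null replicate 2. The LARP4 null pulldowns differed more from each other (mean chi-square per gene 218) than the WT (57.1) or AKAP1 null pulldowns (35.1). The comparisons of AKAP1 null and LARP4 null with WT share the WT libraries.

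The null lines were also compared directly. Enrichment was lower in AKAP1 null than in LARP4 null cells for 9 of 10 members, from -0.68 (COX7B, SE 0.15) to -2.52 (COX6A1, SE 0.14), where 2.94% of genes were called lower. COX4I1 was not called (-0.57, SE 0.16, adjusted p = 0.086). The count fell to 5 without AKAP1 null replicate 1, to 0 without AKAP1 null replicate 2 and to 2 without the lysate block, so the number of calls rests on both AKAP1 null lysates. Over all genes the lower calls fell from 408 to 96, 0 (1700 at an unadjusted p under 0.05) and 20 in the same fits, while the members' median difference was -1.12, -0.94 and -1.07 against -1.05. The values did not overlap between the lines for any member.

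The rest of the complex IV gene set gives the setting. NDUFA4, counted as a further complex IV subunit, resembled the members: 2.42 (SE 0.12) by mRNA in WT, 2.22 (SE 0.09) by footprints and -1.89 (SE 0.17, adjusted p = 4.0e-04) in AKAP1 null against WT. COX7A2L, a factor that joins complexes III and IV into supercomplexes, was lower at 0.93 (SE 0.10), 0.79 (SE 0.13) and -0.80 (SE 0.14, adjusted p = 0.0065). The other 6 listed isoforms, which belong mainly to muscle, lung or testis, did not pass the count minimum. Of the genes of the mitochondrial genome, MT-CO1 and MT-CO3 footprints, which come from mitochondrial ribosomes, were depleted from the OMM pulldown by -3.45 and -3.25, from the ER pulldown by -3.76 and -5.55 and from the cytosolic pulldown by -3.64 and -4.68. MT-CO3 was called higher at the OMM than at the ER (2.30) and in the cytosol (1.43), and MT-CO1 was not called in either contrast.

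Complex IV assembly factors were called in both directions. In WT cells 19 of 29 were enriched and 7 depleted (median 0.50), from PET100 (2.39, SE 0.17) to LRPPRC (-0.87, SE 0.09), where 20.2% of all genes were enriched and 45.6% depleted. In AKAP1 null against WT 15 of 29 were lower and 4 higher (median -0.56), where 7.96% of all genes were lower and 6.52% higher. The values ran from CMC1 (-1.96, SE 0.16) to FASTKD3 (0.95, SE 0.15), an RNA-binding protein of the matrix.

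Among the other respiratory complexes the same change was lower for 25 of 37 complex I subunits (median -1.16, 4 higher), 5 of 9 complex III subunits (median -1.31, 2 higher), 1 of 4 complex II subunits (median -0.16, 1 higher) and 13 of 17 ATP synthase subunits (median -1.18, 2 higher). Of all genes, 7.96% were lower and 6.52% higher. The extremes differed in size: NDUFB9 (179 residues, -3.23), UQCRQ (82 residues, -2.28), ATP5MC1 (136 residues, -2.06) and SDHB (280 residues, -0.70) were lowest in their lists, and NDUFA10 (355 residues, 1.13), UQCRC2 (453 residues, 1.25), SDHA (664 residues, 1.51) and ATP5F1A (553 residues, 1.33) highest. Nuclear-encoded mitochondrial genes under 200 residues outside the oxidative phosphorylation lists had 102 of 178 lower and 0 higher (median -0.72, highest 0.38 for SYNJ2BP). The differences between lists were not tested.

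**Figure D5:**
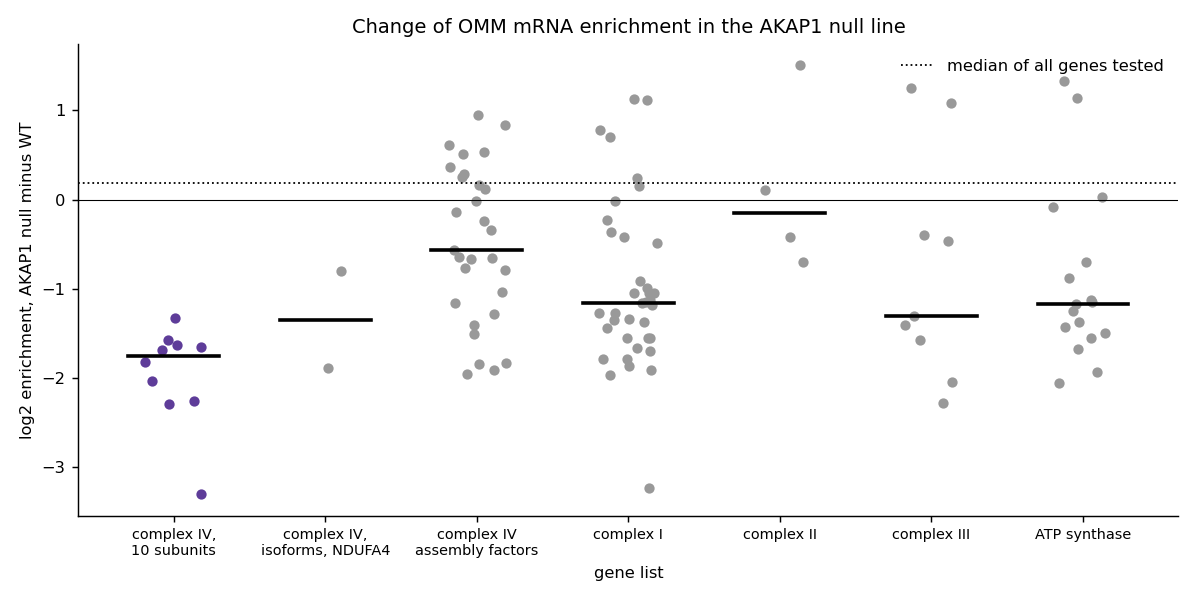
Fitted log2 difference of OMM mRNA enrichment, AKAP1 null minus WT (vertical axis), for each gene of the complex IV, complex I, II, III and ATP synthase lists (horizontal axis), with bars at list medians and a dotted line at the median of all genes (0.19). The 10 complex IV subunits, of at most 169 residues, lay between -3.31 and -1.33. The lists of complexes I, II and III, ATP synthase and assembly factors also hold genes above 0. The highest gene of each of these lists is longer, from NDUFA10 (355 residues) to SDHA (664 residues).

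Genes outside the complex shared the profile. Over 12 lysates with CHX, the mean log2 enrichment profile of the 6 members measured in all of them was closest, among 6430 genes, to NDUFA6 (Euclidean distance 0.446), ATP5ME (0.556), AAMDC (0.664), NDUFA2 (0.679) and NDUFB10 (0.681). The members themselves lay between 0.853 (COX5B) and 1.20 (COX6C) from their own mean. NDUFA6, a complex I subunit of 128 residues, had mean ratios of 1.95 at the OMM by footprints, 0.05 at the ER, 2.18 by mRNA in WT and 0.62 in AKAP1 null cells. AAMDC is the only 1 of these 5 genes outside the mitochondrial gene list used.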

How the data were processed

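The authors removed rRNA and tRNA reads with Bowtie, aligned footprints to GRCh38 (Ensembl 104) with TopHat and counted them with plastid (27 to 36 nt, nibble of 13, non-unique positions masked); the deposited files give estimated counts and RPKM values per gene, for coding sequence and exons. For RNA-seq the authors aligned with STAR and counted with featureCounts (Ensembl 99); the deposited files give whole-number counts, and a score column labelled FPKM that is a constant multiple of FPKM and was used here only in ratios, as an alternative. Broken lines, 3 to 7 per RNA-seq file, were left out.

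Enrichment was tested with edgeR 4.0.16 (quasi-likelihood, counts rounded, library totals as scale, 1 term per lysate, since pulldown and total come from the same lysate), and total inputs with TMM. Pulldown and total of a lysate deviated together (correlation 0.66 to 0.89). Benjamini-Hochberg adjustment ran over all genes, with calls at adjusted p under 0.05. Genes needed 64 coding footprints in the total input of each lysate compared, or a mean of 64 RNA-seq counts. Entries of several genes stayed in totals but were not tested. Log ratios per lysate used deposited RPKM, or CPM with 0.5 counts added. No 2 replicates agreed within sampling noise (chi-square per gene at least 4.92). Protein lengths came from GENCODE 44. All 10 members were named, other lists by counts, medians and extremes, and the 5 nearest profiles. Members and lists were chosen with earlier results of these data known. Alternatives were DESeq2 1.42.0, other scales, minimums, pairings and leaving out lysates. The fits were also run on simulated data, and no outcome of that is reported here.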

Additional observations from a re-analysis of the deposited data

Results flagged for a closer look

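Enrichment of the subunits differed between locations and between lines by a direct test of the difference (edgeR, adjusted p under 0.05). OMM minus ER log2 enrichment was 1.91 for COX5A, 2.61 for COX5B, 1.99 for COX6B1, 2.55 for COX6C, 2.14 for COX7A2 and 1.91 for COX7C. OMM minus cytosolic enrichment was 1.17 for COX5A, 2.18 for COX5B, 1.71 for COX6B1, 2.43 for COX6C, 2.29 for COX7A2 and 2.22 for COX7C. AKAP1 null minus WT enrichment was -1.33 for COX4I1, -1.66 for COX5A, -2.04 for COX5B, -3.31 for COX6A1, -1.69 for COX6B1, -2.30 for COX6C, -2.27 for COX7A2, -1.57 for COX7B, -1.63 for COX7C and -1.83 for COX8A. AKAP1 null minus LARP4 null enrichment was -0.90 for COX5A, -1.07 for COX5B, -2.52 for COX6A1, -1.05 for COX6B1, -1.35 for COX6C, -1.37 for COX7A2, -0.68 for COX7B, -0.87 for COX7C and -1.06 for COX8A. The AKAP1 null and LARP4 null lines are single clones, so the deletion and the clone cannot be told apart.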

How the results depend on the processing

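Groups hold 2 lysates, so no group was examined for outlying samples, and leaving 1 lysate out leaves a lone sample assumed to vary like the other groups. Subunits called depleted at the ER numbered 5; this became 0 with DESeq2 or TMM and 1 with no replicate block. Those called enriched there numbered 1; this became 5 with DESeq2, 6 with TMM and 0 with the strictest minimum count, with no replicate block or without either ER lysate. At the ER, DESeq2 and TMM turned COX5A to 0.26 and 0.30, COX5B to 0.069 and 0.10, COX6B1 to 0.36 and 0.39, COX7A2 to 0.31 and 0.35, and COX7C to 0.23 and 0.26. Cytosolic calls with no replicate block were 0 lower and 0 higher, and the 1 higher call became 0 with the compared libraries alone; leaving out a cytosolic lysate gave 0 to 1 higher. In AKAP1 null cells 8 enriched members became 2 with no replicate block, and 1 to 2 without a lysate. For LARP4 null against WT, 0 lower calls became 10 with DESeq2 or no minimum, and 0 to 10 without a lysate. For AKAP1 null against LARP4 null, 9 lower calls became 2 with no replicate block, and 0 to 10 without a lysate. The block changed no other count of members called by over 1.5 times. Counts over all genes depended on it more. Without it, 98 genes were higher and 331 lower for AKAP1 null against WT, and 515 and 1022 at the OMM. OMM against ER then had 510 higher and 838 lower, and OMM against cytosol 202 and 54. After subtraction of the median of all genes, the members' median per lysate, averaged over lysates, was 2.09 at the OMM (1.71 without), 0.34 at the ER (-0.05), -0.068 in the cytosol (0.18), 2.52 in WT (2.24) and 2.26 without CHX (2.16). Over all exons the 8 subunits held 0.313% of total input footprints in place of 0.231%. For the total inputs, where numbers do not mark a shared lysate (correlations of same-numbered deviations 0.21, 0.34 and -0.07), the replicate block also gave 0 members called. The short countable coding sequence of COX4I1 and COX7B limits their coding footprints. Under the other listed alternatives the counts of members called moved by no more than 1.5 times.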
